A study of Mus musculus with 2 samples.

Results

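The collagen genes described here are the protein-coding genes whose symbol is Col, a number, the letter a and a number, as read from the transcript names of the deposited tables. The rule found 44 genes among the 55536 annotated genes of the gene tables, and the annotation lists all 44 as protein coding. They were measured by total RNA sequencing in a calf muscle, the gastrocnemius. The mice were males of 2 months of B6CASTF1/J, a hybrid of the B6 and CAST strains, and the labels give no treatment, transgene or deletion. The single group has 2 libraries, called replicate 1 and replicate 2 after their labels. The input was 300 ng of RNA per library with ERCC spike-ins. Both carry the same donor entry with separate tissue samples, and separate animals are not stated outright. The p-values below set each difference between the libraries against read-counting error alone and hold no spread between samples, and a difference may be technical in part. With 1 group there is no comparison of conditions, and the questions are which collagens the muscle held and how far the libraries differed in them.

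Collagens are trimeric proteins of the extracellular matrix whose chains wind into a triple helix, for which glycine recurs at a fixed spacing, with 2 other residues between. The fibril-forming collagens assemble into the cables of tendon and of the sheaths around muscle bundles, fibril-associated collagens decorate those cables, and type IV collagen forms the sheet of the basement membrane around each fibre and capillary. Type VI forms beaded filaments that join the basement membrane to the surrounding matrix. In muscle most fibrillar collagen RNA is known to come from fibroblasts and related mesenchymal cells rather than from the fibres. In a bulk sample such as this, fewer cells of a type and less RNA per cell cannot be told apart.

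The members share the glycine repeat. The naming rule read symbols alone, but genes carry a collagen symbol because of this repeat, so its presence is no independent finding. Only members were searched for it. It was read from the coding sequence of the most abundant long coding transcript of each gene in GENCODE release M21, a long transcript being at least 50% as long as the longest coding one. All 44 members held at least 1 run of 10 or more consecutive triplets that open with a glycine codon (GGN), and 43 of the 44 coding sequences were complete, Col16a1 being the exception. In 9 members the longest run reached at least 300 triplets. The runs of the members that lead the 3 most abundant classes are shown by their first 99 bases, with the glycine codon that opens each triplet in capitals, because this repeat is the feature that makes these chains collagens.
Col1a1-201, codons 168 to 200, exons 6 to 8 of 51, chr11:94939451-94939948, plus strand: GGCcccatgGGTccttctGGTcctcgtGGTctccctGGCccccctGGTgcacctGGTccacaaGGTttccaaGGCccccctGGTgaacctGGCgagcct
Col1a2-201, codons 97 to 129, exons 6 to 8 of 52, chr6:4512406-4515525, plus strand: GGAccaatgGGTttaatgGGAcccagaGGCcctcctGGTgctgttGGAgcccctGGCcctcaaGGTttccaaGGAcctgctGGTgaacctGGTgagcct
Col3a1-201, codons 164 to 196, exons 5 to 7 of 51, chr1:45323762-45325813, plus strand: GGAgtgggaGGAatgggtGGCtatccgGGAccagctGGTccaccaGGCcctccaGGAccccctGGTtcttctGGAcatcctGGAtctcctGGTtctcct
Col4a1-201, codons 43 to 75, exons 2 to 3 of 52, chr8:11247015-11267614, minus strand: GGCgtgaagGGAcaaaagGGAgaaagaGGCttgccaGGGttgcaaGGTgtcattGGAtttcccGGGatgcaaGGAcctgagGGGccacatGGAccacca
Col4a2-201, codons 777 to 809, exons 29 to 30 of 48, chr8:11429447-11431256, plus strand: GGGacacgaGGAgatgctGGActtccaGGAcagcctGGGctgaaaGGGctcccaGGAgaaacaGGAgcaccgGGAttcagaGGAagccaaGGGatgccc
Col6a1-201, codons 256 to 288, exons 8 to 10 of 35, chr10:76719161-76720996, minus strand: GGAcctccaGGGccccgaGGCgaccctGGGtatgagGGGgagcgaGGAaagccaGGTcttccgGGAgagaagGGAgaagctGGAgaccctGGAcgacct
The coordinates are those of mm10 (GRCm38) and span the introns between the exons named. In the first stretch of Col1a1, 12 of the 33 codons were proline codons, against 6 of 33 in Col4a1 and 5 of 33 in Col4a2. Such short stretches do not stand for whole chains. Over the whole coding sequence proline codons made up 19.0% in Col1a1, 19.3% in Col4a1 and 16.1% in Col4a2. Helical proline is the residue that prolyl hydroxylases modify, which steadies the triple helix.

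Length and interruption of the repeat varied by class. The fibril-forming chains held 1 long run, of 338 triplets in Col1a1, 339 in Col1a2 and 344 in Col3a1, and the run ranged from 216 to 344 triplets over the 11 genes of the class. The shortest of them were in Col24a1 (216 triplets) and Col27a1 (217 triplets). In the type IV chains the repeat was cut into 16 to 19 runs of at least 10 triplets, the longest of 40 triplets in Col4a1 and 66 in Col4a2. The 2 equal runs of 87 triplets in Col6a1 and Col6a2 were the longest of the beaded-filament class. Fibril-associated chains varied most in the share of the coding sequence that lay in such runs, from 7.63% in Col12a1, which is mostly non-helical domains, to 84.3% in Col9a1.

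Collagen RNA was a small part of the muscle RNA. Values are TPM, transcript abundances relative to all transcripts of a library, which are scaled per length and are used for all comparisons of levels between genes, from the first gene tables unless the second tables are named. Summed over the 44 genes, the libraries held 292.22 and 302.8 collagen TPM (replicates 1 and 2), on average 297.5 ± 7.48 TPM (SD, n = 2). In expected reads the collagens held 0.122% of replicate 1 (95% exact Clopper-Pearson interval 0.121 to 0.123) and 0.129% of replicate 2 (0.128 to 0.130). The intervals cover counting error only. The library totals were 42925570 and 42467674 expected reads. In both libraries 18 collagens reached 1 TPM, in either library 21, and 23 stayed below it in both. The 5 most abundant collagens held 73.1% of collagen TPM in replicate 1 and 78.7% in replicate 2. Tissue identity was checked with fast fibre markers, of which 12 of 12 reached 1 TPM in both libraries, with summed TPM of 79186 and 63199, and slow fibre markers, of which 11 of 11 did, with 1369 and 3465 TPM.

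Type I and type III chains led. Col1a1 (chr11:94936224-94953042, plus strand), which encodes the α1 chain of type I collagen, reached 60.6 TPM in replicate 1 and the higher level of 88.0 in replicate 2. Col1a2 (chr6:4504814-4541544, plus strand), the α2 chain of the same trimer, was at 49.7 and 72.4 TPM. Col3a1 (chr1:45311538-45349706, plus strand), the single chain of type III collagen, which forms finer fibrils together with type I, was at 54.4 and 30.3 TPM. Among protein-coding genes Col1a1 ranked 644th by mean TPM and was above 97.1% of them, Col1a2 ranked 777th and Col3a1 1133rd. In these tables Col1a1 was the highest of the 3 in both libraries, at 1.22 times Col1a2 in each. At gene level Col1a2 and Col3a1 changed order: Col3a1 was above Col1a2 in replicate 1 and far below it in replicate 2. For long coding transcripts alone Col3a1 was below Col1a2 in both libraries. It was at 40.5 against 46.9 TPM in replicate 1 and at 24.8 against 65.0 TPM in replicate 2. The means were 74.3 ± 19.4 (Col1a1), 61.0 ± 16.0 (Col1a2) and 42.3 ± 17.1 TPM (Col3a1, SD, n = 2 each).

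Lower in the fibril-forming class were the chains of types V and XI, which are known to start fibrils and limit their width. Col5a1 was at 6.23 and 3.72 TPM in replicates 1 and 2. Col5a2 followed at 5.49 and 3.51 TPM, and Col5a3 at 5.01 and 3.67 TPM. All 3 type V chains were thus higher in replicate 1, and within each library they lay close together. Col11a2 was at 1.16 and 1.84 TPM and Col11a1 at 0.83 and 1.35 TPM, both with the opposite order of the libraries. The cartilage collagen Col2a1 was at 0.45 and 0.49 TPM from 22 and 47 reads. Of 11 cartilage and bone markers 5 (Matn1, Snorc, Sp7, Bglap and Ibsp) had 0 reads in both libraries and 6 (Sox9, Dmp1, Runx2, Matn3, Hapln1 and Acan) had reads. Sox9, a regulator of cartilage genes, was the highest of these at 0.89 and 1.45 TPM, and replicate 2 was the higher library for it as for Col2a1 and Col11a1. Runx2 had 21 and 29 reads (log2 ratio 0.50), while Dmp1 went the other way with 36 and 23 reads (-0.59). The fibril-associated Col9a1 also had fewer reads in replicate 2 (51 and 34 reads, log2 ratio -0.53). Runx2, Dmp1 and Col9a1 were not called. The part of cartilage cells in these levels was not tested.

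Type IV collagen was the second most abundant class. Col4a1 (chr8:11198423-11312826, minus strand) was at 28.8 TPM (replicate 1) and 29.8 TPM (replicate 2), and its partner Col4a2 (chr8:11312805-11449287, plus strand) at 20.1 and 17.7 TPM. These 2 chains build the common basement membrane trimer, and their means of 29.3 ± 0.764 and 18.9 ± 1.69 TPM (SD, n = 2) lay apart in both libraries. The other type IV chains, known from specialised basement membranes such as that of the kidney glomerulus, were far lower: Col4a4 at 0.64 and 0.37 TPM, Col4a5 at 0.59 and 0.34 TPM, Col4a3 at 0.47 and 0.37 TPM, and Col4a6 at 0.06 and 0.02 TPM.

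Type VI chains followed. Col6a1 was at 11.96 and 9.40 TPM, Col6a2 at 11.2 and 8.80 TPM and Col6a3 at 8.48 and 8.86 TPM, in replicates 1 and 2. The means of the 3 chains were 10.7 ± 1.81, 9.99 ± 1.68 and 8.67 ± 0.269 TPM (SD, n = 2). Col6a1 was above Col6a2 in both libraries, at 1.07 times its level in each. At gene level Col6a3 was below Col6a2 in replicate 1 and just above it in replicate 2. For long coding transcripts alone Col6a3 was below Col6a2 in both libraries, at 0.56 and 0.58 times its level. Col6a6, a chain related to Col6a3, reached 0.74 and 0.46 TPM, and the related Col6a5 and Col6a4 had 10.2 and 6.24 reads and 0 and 1 reads.

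Other classes held less. The multiplexin Col15a1, which sits at the outer face of the basement membrane, was at 7.63 and 5.47 TPM, and Col18a1, the source of the fragment endostatin, at 1.48 and 1.14 TPM. Of the fibril-associated collagens, Col22a1, a collagen of the myotendinous junction, had the highest mean, at 2.99 and 2.94 TPM. Col14a1 was at 3.91 and 1.78 TPM, Col12a1 at 1.77 and 2.40 TPM and Col16a1 at 1.37 and 1.45 TPM. Col8a1, a short-chain network collagen of vessel walls, was at 0.79 and 1.12 TPM, and Col7a1, the anchoring fibril of skin, at 1.17 and 0.72 TPM. None of the 4 transmembrane collagens (Col13a1, Col17a1, Col23a1 and Col25a1) reached 1 TPM.

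In all, 25 members had a mean under 1 TPM, from 0 to 0.955, and their sums were 9.25 TPM (replicate 1) and 8.26 TPM (replicate 2). No member had 0 reads in both libraries. The 9 members with fewer than 20 reads in all (Col28a1, Col4a6, Col6a5, Col25a1, Col9a2, Col17a1, Col9a3, Col10a1 and Col6a4) had 1 to 19 reads over the 2 libraries, too few to compare. A library with 0 reads of a gene, as replicate 1 for Col6a4, allows up to 3 reads.

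**Figure D1:**
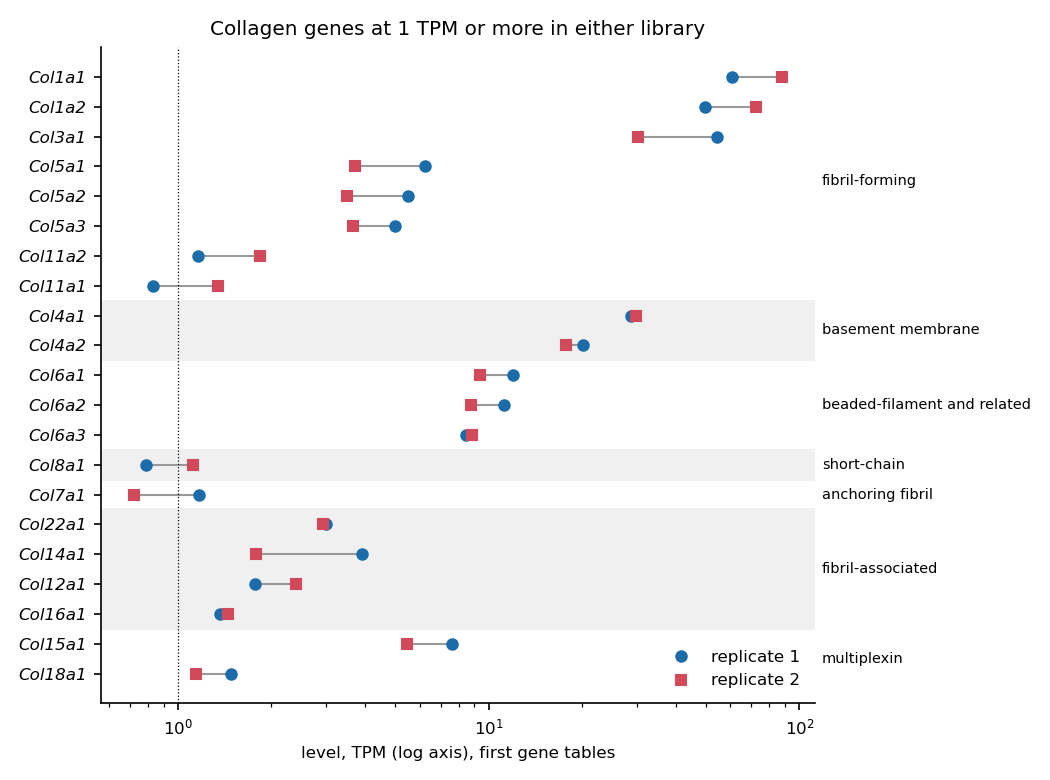
Levels of the 21 collagen genes at 1 TPM or more in either library. Each row is a gene, grouped by class; the horizontal log axis gives TPM of the first gene tables, circles are replicate 1 and squares replicate 2, the grey line joins them and the dotted line marks 1 TPM. Col1a1 and Col1a2 lie higher in replicate 2, Col3a1 and the type V chains higher in replicate 1, and Col22a1 nearly coincides.

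By class, fibril-forming collagens held 63.2% of collagen TPM in replicate 1 and 68.1% in replicate 2, basement membrane collagens 17.3% and 16.1%, and beaded-filament and related collagens 11.3% and 9.19%. Fibril-associated collagens held 4.03% and 3.38% and multiplexins 3.12% and 2.18%. Each of the remaining classes stayed under 0.6%. Within types I and III together, Col3a1 held 33.0% of TPM in replicate 1 and 15.9% in replicate 2. The Col3a1 part of the main fibril chains was thus higher in replicate 1. Types I and III made up 56.3% and 63.0% of all collagen TPM.

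The libraries were compared on rounded expected counts, scaled by TMM, with a two-sided conditional binomial test, which is exact, for genes with at least 20 reads in all, with Benjamini-Hochberg adjustment over the 14827 genes tested. A gene was called at an adjusted p under 0.05 together with at least 1.5-fold on scaled counts with 0.5 added. The test compares these 2 libraries, and it has no replicate check. Of the 35 collagens tested, 5 were called higher in replicate 2 (14.3%), where 4.19% of all genes tested were, and 6 higher in replicate 1 (17.1%), where 2.75% of all genes were. The median log2 ratio, replicate 2 over replicate 1, was -0.22 over the collagens and 0.00 over all genes. The remaining 24 collagens were not called. Calling depends on read number as well as on difference, and collagens were not matched to other genes on it.

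Type I chains were higher in replicate 2. Col1a1 had 12071 reads in replicate 1 and 17608 in replicate 2, a 1.51-fold difference (95% counting interval 1.47 to 1.54). Its adjusted p was 4.86e-268 in the exact test. Col1a2, with 8576 and 11961 reads, was 1.44-fold higher (1.4 to 1.48, exact test adjusted p = 7.36e-148) and stayed under the 1.5-fold minimum. The call thus parts the 2 chains of 1 trimer, while their intervals of the fold overlap. With DESeq2 size factors or library totals Col1a1 also fell below 1.5-fold, at log2 ratios of 0.57 and 0.56. Col11a1 went further, with 155 and 306 reads (2.04-fold, 1.68 to 2.49). Its partner Col11a2, with 211 and 305 reads, was at 1.49-fold (1.25 to 1.79) and was not called. Col2a1 (22 and 47 reads, 2.18-fold, 1.30 to 3.85), Col8a2 (42 and 81 reads, 1.98-fold, 1.36 to 2.97) and Col20a1 (52 and 80 reads, 1.59-fold, 1.11 to 2.30) were the other members called higher in replicate 2, each on fewer reads than Col11a1. The Col2a1 difference was not seen in gene-level TPM, at a log2 ratio of 0.12. In the second tables its gene-level TPM had the other order, 0.839 in replicate 1 and 0.785 in replicate 2. Its long coding transcripts alone were at 0.08 and 0.25 TPM from 14.5 and 41.4 reads, a log2 ratio of 1.64. Those of the second tables were at 0.147 and 0.333 TPM. The Col20a1 call was lost with library totals (exact test adjusted p = 0.0533) and with all genes of at least 1 read tested (0.0556), while Col11a2 was called with spike-in scaling (log2 ratio 0.63) and in the second tables (0.64).

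Types III, V and XIV went the other way. Col3a1 had 7844 reads in replicate 1 and 4770 in replicate 2, which is 1.59-fold higher in replicate 1 (1.53 to 1.65, exact test adjusted p = 8.64e-143). Col5a1 had 1777 and 1063 reads and was 1.62-fold higher in replicate 1 (1.5 to 1.75), and Col14a1, with 695 and 328 reads, was 2.05-fold higher (1.79 to 2.34). Type XIV collagen binds to the surface of fibrils. Col6a6 (207 and 120 reads), Col4a4 (185 and 117 reads) and Col4a5 (122 and 75 reads) were 1.67, 1.53 and 1.57-fold higher in replicate 1. The call of Col4a4 was lost with spike-in scaling (adjusted p = 0.00525, log2 ratio -0.56) and with the second tables (adjusted p = 0.0132, log2 ratio -0.49).

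Log2 ratios (replicate 2 over replicate 1) of the chains of 1 collagen type are given side by side. Type VI was at -0.31 (Col6a1), -0.29 (Col6a2) and -0.26 (Col6a3), and the minor type IV chains at -0.58 (Col4a3), -0.61 (Col4a4) and -0.65 (Col4a5). Col4a1 and Col4a2 were at -0.05 and -0.13, so neither main basement membrane chain reached 1.5-fold. Type V was at -0.69 (Col5a1), -0.55 (Col5a2) and -0.38 (Col5a3). Across the fibril-forming class as a whole the ratios ran from -0.69 for Col5a1 to 1.13 for Col2a1. Of its 11 members 3 were called higher in replicate 2 and 2 in replicate 1. Over all genes tested the shares called were 4.19% and 2.75%, and the class is too small to be read against them. Summed over the class, counts in replicate 2 were higher by a log2 ratio of 0.24 (0.22 to 0.27), which the type I reads dominate. For the basement membrane class the summed log2 ratio was -0.11 (-0.15 to -0.07), and for the beaded-filament class -0.30 (-0.36 to -0.24).

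At an adjusted p under 0.05 of the same exact test without a minimum fold, 9 collagens were higher in replicate 2, where 14.4% of all genes were, and 14 in replicate 1, where 11.7% of all genes were. The added genes were Col1a2, Col12a1, Col11a2 and Col8a1 in replicate 2, and Col4a2, Col6a1, Col6a2, Col6a3, Col15a1, Col5a2, Col5a3 and Col4a3 in replicate 1. With a 2-fold minimum, 2 collagens, Col11a1 and Col2a1, were higher in replicate 2, against 1.85% of all genes, and Col14a1 alone was higher in replicate 1, against 1.3% of all genes.

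**Figure D2:**
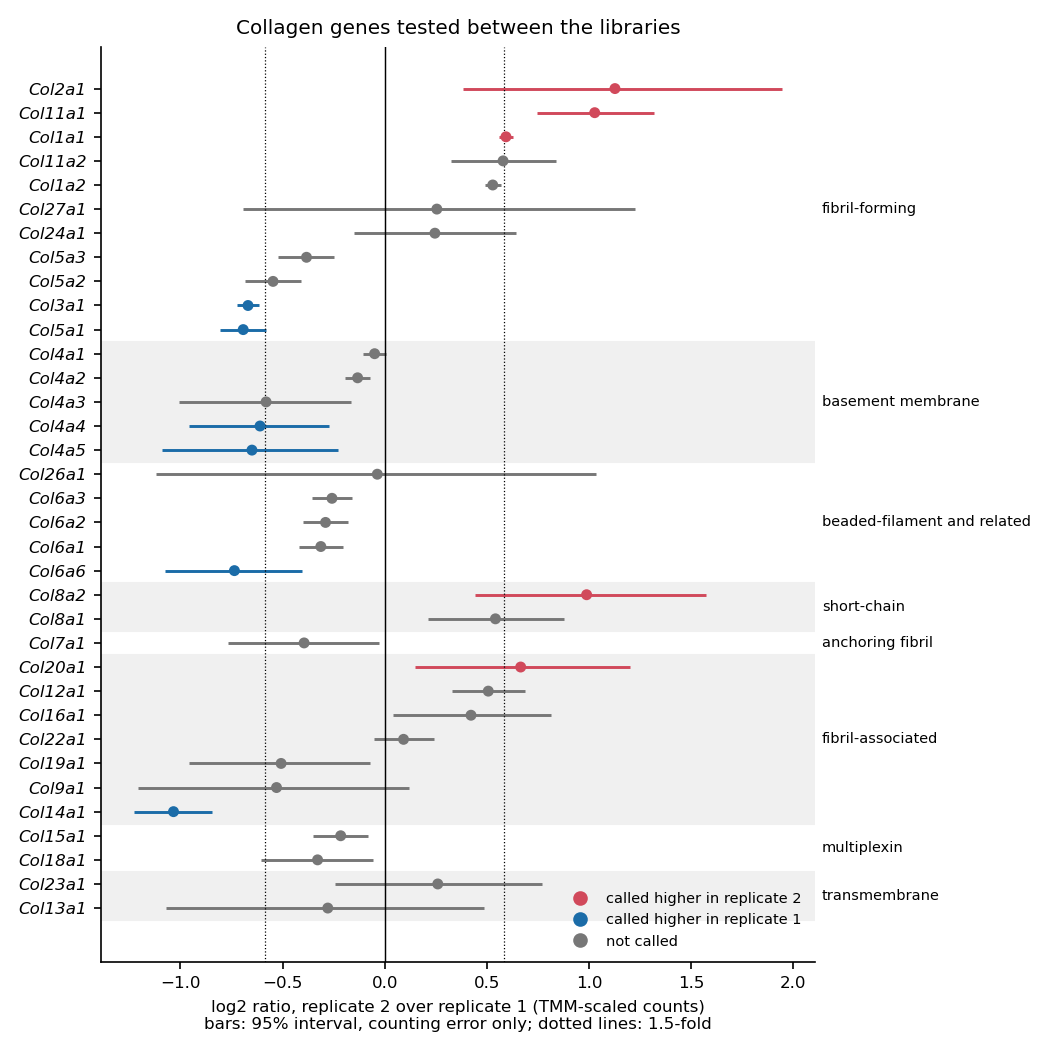
Log2 ratios of the 35 tested collagens, replicate 2 over replicate 1, on TMM-scaled counts. Rows are genes grouped by class, points are the ratio, bars the 95% interval for counting error, and dotted lines mark 1.5-fold; 5 red genes were called higher in replicate 2 and 6 blue genes higher in replicate 1, and Col1a1 sits on the 1.5-fold line.

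Levels of a gene sum those of its annotated transcripts, and short annotated fragments held part of the level of several collagens. The long coding transcripts of Col1a1 held 99.5% and 99.7% of its TPM in replicates 1 and 2, and those of Col4a2 100% in both. For Col3a1 they held 74.4% and 82.0%: the full-length Col3a1-201 was at 40.5 and 24.8 TPM, and the short Col3a1-205 (737 bases) at 6.37 and 2.64 TPM from 140 and 58.0 reads. For Col6a3 they held 72.5% and 56.0%, with the retained-intron fragment Col6a3-206 (646 bases) at 2.11 and 2.36 TPM. Col4a1 had 84.3% and 75.1%, since Col4a1-203 (545 bases) was at 4.13 and 7.24 TPM. In expected reads the long coding shares were 96.8% and 97.7% for Col3a1, 97.1% and 95.6% for Col6a3 and 98.7% and 97.8% for Col4a1. Col4a1 as a gene had the higher TPM in replicate 2 but fewer reads there (5494 and 5133 reads), while Col4a1-201 alone had the lower TPM there (24.2 and 22.4). The measure by long coding transcripts was chosen after the data were seen.

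The leading transcript was the same in both libraries and both kinds of table for 30 of the 44 members. Among the 9 members with a mean of at least 5 TPM these were Col1a1-201, Col1a2-201, Col3a1-201, Col4a1-201, Col4a2-201, Col6a1-201, Col6a2-201, Col6a3-202 and Col15a1-202. The 14 members whose leading transcript differed were Col2a1, Col6a4, Col7a1, Col9a1, Col9a2, Col9a3, Col11a2, Col13a1, Col16a1, Col19a1, Col25a1, Col26a1, Col27a1 and Col28a1. For Col16a1 only 15.4% and 16.0% of TPM was in long coding transcripts, and for Col7a1 28.2% and 38.9%. On the TPM scale their gene levels are thus mostly those of other annotated transcripts. For Col2a1 the share was 17.8% and 51.0%. In expected reads long coding transcripts held 69.8% and 81.2% for Col7a1, 65.8% and 88.0% for Col2a1 and 32.7% and 24.6% for Col16a1. In the second tables the read share of Col16a1 was 28.2% and 81.1%.

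**Figure D3:**
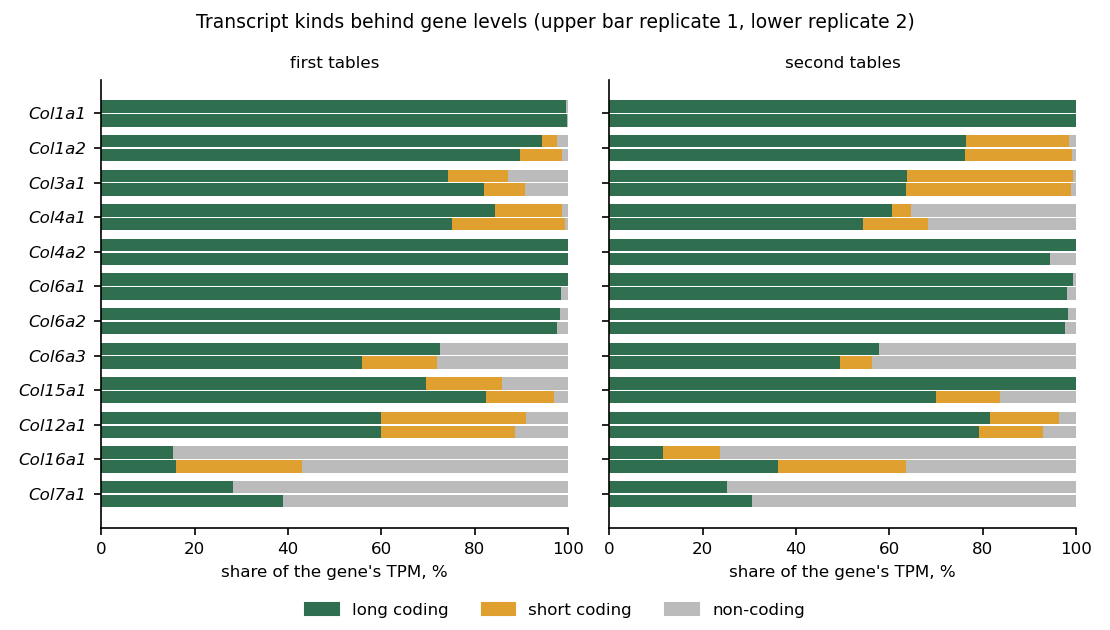
Share of each gene's TPM by kind of transcript, in percent, for 12 collagens in the first tables (left) and the second tables (right), with replicate 1 as the upper and replicate 2 as the lower bar of each gene. Green is long coding, orange short coding and grey non-coding transcripts; Col1a1 and Col4a2 are almost wholly green in the first tables, while Col16a1 and Col7a1 are mostly grey.

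Ratios between chains of 1 collagen were read on the TPM scale. Gene-level Col1a1 over Col1a2 was 1.22 in both libraries in the first tables, but 0.953 and 1.00 in the second tables, where Col1a2-205, a fragment of 850 bases, was at 19.0 and 26.1 TPM. For the long coding transcripts alone the ratio was 1.28 and 1.35 in the first tables and 1.25 and 1.32 in the second, so that the order held in both kinds of table for full-length RNA. Col4a1 over Col4a2 was 1.43 and 1.68 at gene level and 1.20 and 1.26 for long coding transcripts. Col6a1 over Col6a2 was 1.07 in both libraries at gene level, and 1.09 and 1.08 for long coding transcripts. Col6a3 over Col6a1 was 0.709 and 0.943 at gene level but 0.514 and 0.535 for long coding transcripts. Col1a1 over Col3a1 was 1.11 in replicate 1 and 2.91 in replicate 2, and 1.49 and 3.54 for long coding transcripts.

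Collagen TPM of the second tables came to 451 in replicate 1 and 449 in replicate 2 over the 44 genes. Among the 19 members with a mean of at least 1 TPM, the second-table level was 1.04 to 1.98 times the first, with medians of 1.46 and 1.38, against medians of 1.5 and 1.43 over protein-coding genes of that level. The fibril-forming share was 62.7% and 66.7% in the second tables. For Col6a6, Col6a5 and Col3a1 the expected counts were fractional, as reads were split between annotated genes. The counts of Col6a6 and Col6a5 add up to whole reads in each library, 206.84 with 10.16 in replicate 1 and 119.76 with 6.24 in replicate 2. Col3a1 shares 141 exonic bases with the miRNA gene Gm47302, which took 108 and 77.4 reads.

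Exonic bases were shared with another annotated gene by 13 members, 10 of them with a gene on the opposite strand, and the sources used here do not say whether strand was used in counting. Col20a1 overlaps BX649560.1 on its own strand over 79 bases, and that entry took 207 and 212 reads, more than Col20a1 itself. The expected counts of Col20a1 were whole (52 and 80), so they show no split of reads with that entry. The Col20a1 call is uncertain because it was lost in the other settings named above. Col10a1 shares 18 bases with Nt5dc1 on the opposite strand (137 and 122 reads, against 1 read of Col10a1 in each library). The first exons of Col4a1 and Col4a2 overlap by 22 bases, which is 0.295% and 0.332% of their exonic lengths.

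Genes of type IV collagen lie head to head in pairs, and the paired chains are read outward from 1 shared region. Col4a1-201 starts at base 11312826 and Col4a2-201 at base 11312805 of chromosome 8, so that their ends overlap. Col4a4-201 and Col4a3-201 start 126 bases apart on chromosome 1, and Col4a6-201 and Col4a5-202 1308 bases apart on chromosome X. Of the 2 pairs with low levels, Col4a3 and Col4a4 were at 0.47 and 0.64 TPM (replicate 1) and both at 0.37 TPM (replicate 2). In the other pair Col4a5 was 9.83 and 17.0 times Col4a6, although Col4a6 rested on 14 and 5 reads.

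Upstream sequence is shown for members whose levels moved apart (Col3a1 and Col1a2) and for the bases between the outermost annotated starts of the paired genes Col4a4 and Col4a3. Windows of 250 bases before to 50 after a start, from RefSeq on GRCm38.p6, were matched by symbol for 35 of the 44 members. The Col1a2 stretch lies within the annotated span of the gene, in an intron of Col1a2-205, and ends directly before the start of Col1a2-201. Only bases outside annotated exons are printed, and capitals mark the CCAAT box (its 5 letters), the GC box (GGGCGG) and the TATA box (TATAAA), searched on either strand. The motifs do not overlap within the printed stretches.
Col3a1, chr1:45311288-45311537, plus strand: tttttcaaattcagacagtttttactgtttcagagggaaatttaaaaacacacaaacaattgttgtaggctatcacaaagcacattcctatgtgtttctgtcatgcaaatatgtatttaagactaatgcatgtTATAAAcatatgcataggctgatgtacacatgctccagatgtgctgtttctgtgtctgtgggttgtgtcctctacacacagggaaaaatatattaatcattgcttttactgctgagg
Col1a2, chr6:4505370-4505492, plus strand: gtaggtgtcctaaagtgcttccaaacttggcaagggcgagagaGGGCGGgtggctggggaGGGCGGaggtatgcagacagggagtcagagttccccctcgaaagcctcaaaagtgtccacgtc
Col4a4 to Col4a3, chr1:82586850-82586920, minus strand: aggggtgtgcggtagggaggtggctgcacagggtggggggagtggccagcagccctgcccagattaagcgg
The Col3a1 stretch of 250 bases held 1 TATA box and had a GC content of 35.2%, while the Col1a2 stretch of 123 bases held 2 GC boxes at 59.3% GC. The whole Col1a2 window also held a CCAAT box, outside the printed stretch. None of the 3 motifs was in the 71 bases between Col4a4 and Col4a3, at 69.0% GC. Over the 38 windows of members, 300 bases each, a GC box was in 60.5% against 35.7% of all 32851 windows, a CCAAT box in 34.2% against 37.4% and a TATA box in 13.2% against 13.6%. The median GC content was 59.8% in windows of members and 52.7% in all windows, and the GC box is itself made of G and C alone. These matches describe letters in a window and not sites of binding.

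Genes that modify, fold and secrete collagen are given as counts beside the 4.19% (replicate 2) and 2.75% (replicate 1) of all genes tested that were called, and the lists are too short to be read against these shares. Of 14 hydroxylase and related genes tested, 1 (P3h2, 1.81 and 2.40 TPM, log2 ratio 0.64) was called higher in replicate 2 and 13 were not called, with a median of 0.04. The most abundant were P4hb, a subunit of the prolyl hydroxylase, at 78.8 and 74.8 TPM, Colgalt1 at 15.5 and 14.5 TPM and Ppib at 12.8 and 13.1 TPM. None of 12 chaperone and secretion genes was called, the leaders being Sparc (108 and 112 TPM), Mia3 (89.7 and 79.5 TPM) and Mia2 (44.2 and 40.8 TPM). At an adjusted p under 0.05 Sparc alone of these 3 passed, at a log2 ratio of 0.12.

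Of 7 procollagen proteinase and enhancer genes tested, Pcolce2 was higher in replicate 1 (3.21 and 1.64 TPM, log2 ratio -0.78). Pcolce was at 12.1 and 11.7 TPM and Bmp1 at 3.70 and 3.08 TPM, and Mep1a and Mep1b had 0 reads in both. None of the 5 lysyl oxidases, which cross-link collagen, was called: Loxl2 was at 3.99 and 3.39 TPM, Loxl1 at 4.16 and 3.19 TPM and Lox at 2.72 and 3.16 TPM. At an adjusted p under 0.05 alone Loxl2, Loxl1 and Lox passed, at log2 ratios of -0.22, -0.33 and 0.27. None of 11 degradation genes was called, with a median log2 ratio of -0.33. Timp3 (32.0 and 20.6 TPM) and Timp2 (27.5 and 20.9 TPM), inhibitors of matrix proteinases, and Mmp2 (13.9 and 12.8 TPM) led these. Without the minimum fold Timp3, Timp2 and Mmp2 passed, at log2 ratios of -0.58, -0.37 and -0.27. Of 8 receptor genes tested, Itga11 was higher in replicate 1 (1.26 and 0.81 TPM, log2 ratio -0.59), and Itgb1 (65.2 and 58.8 TPM), Ddr1 (6.24 and 6.27 TPM) and Ddr2 (6.42 and 4.58 TPM) were not called. Ddr2 (log2 ratio -0.17) and Itga1 (0.30) also passed without the minimum fold.

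Calls were also found among fibril-binding proteins and other genes with collagen domains. Both lists are too short to be read against the 4.19% (replicate 2) and 2.75% (replicate 1) of all genes called. Of 14 fibril-binding genes 5 were called higher in replicate 2 (Fmod, Kera, Postn, Thbs1 and Thbs2), and Fn1 in replicate 1 at a log2 ratio of -0.63. The farthest was Postn, at 1.32 and 2.60 TPM (log2 ratio 1.02). The most abundant were Dcn (106 and 87.4 TPM), Fmod (21.03 and 38.1 TPM) and Bgn (14.7 and 16.0 TPM). Of 17 other genes with collagen domains Colq was higher in replicate 2 (log2 ratio 0.69) and Scara5, C1qtnf1 and Emilin2 in replicate 1, C1qtnf1 being the farthest at -0.83. Scara5 (5.89 and 3.21 TPM), Mmrn2 (4.04 and 4.00 TPM) and Emid1 (4.29 and 3.46 TPM) led that list.

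Markers of connective tissue cells also differed between the libraries. Among all genes tested 4.19% were called higher in replicate 2 and 2.75% in replicate 1. These 2 lists too are too short to be read against those shares. Of 12 fibro-adipogenic and fibroblast markers, all above 1 TPM, 5 were called higher in replicate 1 (Dpt, Pi16, Clec3b, Gsn and Fbn1) and none in replicate 2. Their summed level over the 12 genes was 493 TPM in replicate 1 and 310 TPM in replicate 2, of which Gsn alone made up 265 and 137 TPM. The farthest was Pi16 (8.58 and 3.24 TPM, log2 ratio -1.20), and the most abundant were Gsn, Dcn and Ly6a. Of 12 tendon markers, 7 were higher in replicate 2 (Scx, Tnmd, Fmod, Chad, Comp, Cilp2 and Kera) and 2 in replicate 1 (Egr1 and Tppp3), with a summed level of 85.8 and 116 TPM. Scx, the tendon transcription factor, was at 2.71 and 4.09 TPM, and Cilp2, the farthest up, at 1.37 and 3.04 TPM (log2 ratio 1.20), while Egr1 was the farthest down at -1.45. The most abundant of that list were Fmod, Thbs4 and Tppp3. Fmod and Kera also stand in the fibril-binding list, as do Dcn and Lum of the fibroblast list. The part of either marker list in the collagen differences was not tested.

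Fibre type markers differed as well, in lists too short to be read against the 4.19% (replicate 2) and 2.75% (replicate 1) of all genes called. Replicate 2 was the higher library for all 11 slow fibre markers (called, median log2 ratio 1.35), led by Myl2, Myl3 and Myh7, and farthest for Pln at 2.36. Of 12 fast fibre markers Myh1 and Myh2 were higher in replicate 2, Myh2 at 1.02, and the other 10, among them the most abundant, Tnnt3, Mylpf and Myh4, were lower in replicate 2 at log2 ratios of -0.52 to -0.19. All 10 had an adjusted p under 0.05 in the exact test and stayed under the 1.5-fold minimum. The part of fibre type in the collagen differences was not tested.

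The other lists are likewise too short to be read against the 4.19% and 2.75% of all genes called. One of 9 endothelial markers, Emcn (log2 ratio 0.70), was higher in replicate 2, and Ly6c1, Egfl7 and Cdh5 led that list. Tagln (-0.67), 1 of 9 mural cell markers, was higher in replicate 1, with Rgs5, Abcc9 and Acta2 leading. Colq alone was called among 8 neuromuscular junction markers, led by Musk, Dok7 and Rapsn, and Slc24a2 (0.95, at 0.23 and 0.17 TPM) among 6 myotendinous junction markers, led by Itgb1bp2, Tigd4 and Ankrd1. Cd163 (-0.70) was higher in replicate 1 among 7 macrophage markers, led by Lyz2, C1qb and Csf1r, and Cfd (-0.83) among 5 adipocyte markers tested, led by Fabp4, Cfd and Cidec. Sox9 (0.75) was higher in replicate 2 among 3 cartilage and bone markers tested, followed by Dmp1 and Runx2.

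**Figure D4:**
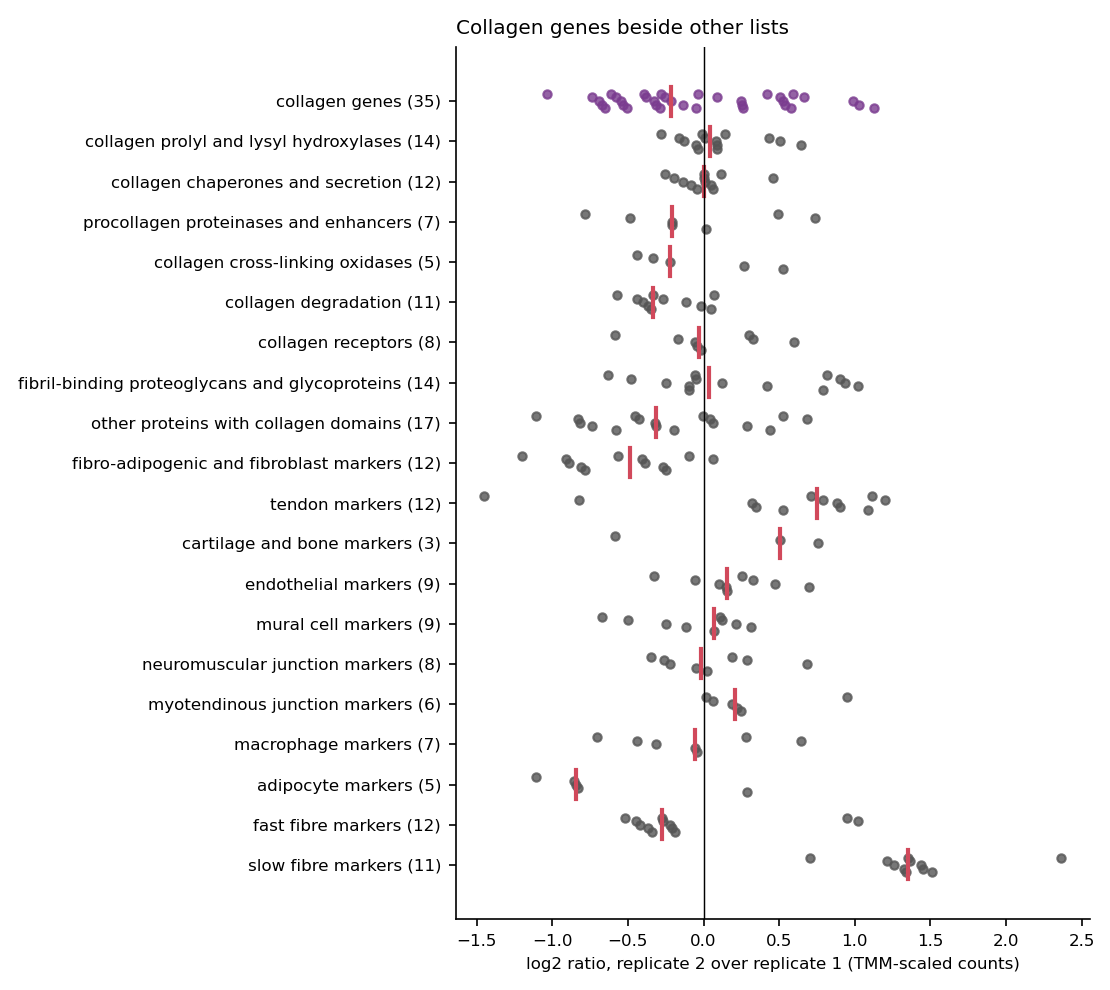
Log2 ratios, replicate 2 over replicate 1, of the tested collagens (purple) and of the genes of 19 other lists (grey), 1 point per gene on the horizontal axis and the number tested in brackets; the red line is the median. The collagens spread from -1.03 to 1.13 on both sides of 0, the fibroblast markers lie mostly below 0 and the tendon and slow fibre markers mostly above it.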

How the data were processed

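Total RNA-seq of gastrocnemius gave 1 group of 2 libraries. Per the file headers, the first tables deposited by the authors hold expected counts, TPM, posterior standard deviations (read as scores) and, per transcript, the percent of the gene's TPM. The other deposited tables, called the second tables, give estimated counts and TPM of transcripts, which were summed to genes. The deposited notes give mm10 and GENCODE M21, and derive the first tables from transcriptome alignments and the second from reads. The sources used here name no program or version. Reads of CAST alleles were counted on a reference of the other parental type.

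Depth and intervals are given in the report. Expected counts were rounded for the test and scaled by TMM factors (edgeR 4.0.16, R 4.3.3). A single group leaves edgeR's quasi-likelihood test no contrast, so the libraries were compared by an exact conditional binomial test (SciPy 1.17.1) with Benjamini-Hochberg adjustment. The test was checked on simulated counts that held counting error and 2-fold changes only, so the check does not cover spread between samples. Alternatives were other scalings (DESeq2 1.42.0 size factors, library totals, spike-in reads), count minimums, added counts, TPM minimums, call rules, the second tables, protein-coding TPM, posterior mean TPM and leaving out each library. Symbols, classes and coordinates of all 44 members came from the transcript names and GENCODE M21.

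Members, lists and the naming rule were chosen with earlier results of these data known. Named are all members with a mean TPM of at least 1 or a call, the 3 most abundant genes of each list and its called gene farthest each way. Sequences came from GENCODE transcripts and RefSeq windows (GRCm38.p6). Proteins were not used here, and 1 marker list is not reported here.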

Additional observations from a re-analysis of the deposited data

How the results depend on the processing

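Of 32 recomputations of the 4 main counts and sums, 22 stayed within 1.5 times the main count, or 1 SD of the main sum. With a minimum of 5 TPM, 9 collagens passed in both libraries. The mean summed TPM of 297.5 became 449.8 in the second tables, 637 with TPM of protein-coding genes alone and 265 with long coding transcripts alone, an alternative chosen after seeing the data. It ranged from 292.2 to 302.8 TPM when 1 library was left out, which with 2 libraries lies within 1 SD by construction. The 5 collagens higher in replicate 2 became 3 with library totals, 2 with at least 200 reads, 9 with an adjusted p alone and 2 with a 2-fold minimum. The 6 higher in replicate 1 became 14 with an adjusted p alone and 1 with a 2-fold minimum. The scalings moved the median log2 ratio of all genes by at most 0.05, less than 0.1.

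Among the single genes named by the rule, ratios and shares, 366 of 459 recomputations kept direction and call or stayed within 1 SD. These include levels and shares with 1 library left out, which with 2 libraries stay within 1 SD by construction. Of the other recomputations 81 moved, 6 lost a call (Col1a1, Col20a1 and Col4a4), 2 gained one (Col11a2) and 4 changed sign. Outside these, Col4a3 was called higher in replicate 1 with DESeq2 size factors, library totals and the second tables, and Col8a1 higher in replicate 2 with spike-in scaling. With at least 200 reads Col2a1, Col8a2, Col20a1 and Col4a5 were not tested. The log2 ratio of Col1a1 over Col1a2 was -0.032 in the second tables, where short fragments of Col1a2 had higher TPM. Col4a3 over Col4a4 was 0.31 there; the cause was not tested. Gene-level Col6a3 over Col6a2 in the first tables ranged from -0.40 to 0.0098 when 1 library was left out. The log2 ratio of Col4a1 between libraries was 0.00196 (exact test adjusted p = 0.991) with spike-in scaling. No paired analysis was possible because the series has 1 group. Depth limits the 9 members with under 20 reads in all.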
